A study of Mus musculus with 6 samples.

Results

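The enzymes, transporters and muscarinic receptors of acetylcholine signalling were examined in forebrain RNA of mouse embryos at embryonic day 15.5. The group holds 10 genes of the 33084 in the deposited table: Ache, Bche, Chat, Slc5a7, Slc18a3, Chrm1, Chrm2, Chrm3, Chrm4 and Prima1. It was chosen by symbol after Ache, the acetylcholinesterase gene, had been seen lower in Dyrk1a heterozygotes, and the other 9 genes were added for their place in the same pathway. The difference between genotypes therefore selected the group, and for its genes it is given as a description: counts of calls are recorded beside those of all genes, and nothing is read from them. The heterozygous group (Dyrk1a+/-) comprised 3 libraries and the control group (wt) 3 libraries, all of microdissected forebrain from the same mouse line, in which mutants carry a single active copy of the kinase gene Dyrk1a. The labels call the libraries biological replicates and do not say which bases of Dyrk1a were removed, or the strain, the sex or whether embryos were pooled.

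Acetylcholine is made from choline and acetyl-CoA by choline acetyltransferase, the product of Chat, and is loaded into synaptic vesicles by the vesicular transporter Slc18a3. After release it acts on muscarinic receptors, which couple to G proteins, and on nicotinic receptors, which are ion channels. Acetylcholinesterase ends the signal by splitting the transmitter, and Slc5a7 returns the choline to the terminal. In the forebrain the cholinergic cells are mainly neurons of the basal forebrain and striatum, which are born in the ventral telencephalon, whereas acetylcholinesterase and the receptors are made by many other cells. Chat and Slc18a3 form a nested locus, with the transporter gene lying inside the first part of the Chat gene on the same strand.

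Libraries held 18699434 to 25012356 counts in Dyrk1a+/- and 25270710 to 32865708 in wt. The leading axis of variation between libraries (38.2% of the variance) set Dyrk1a+/- replicate 2 and wt replicate 3 against the remaining 4 libraries, and for Ache the genotypes are therefore also compared inside each of these sets. Dyrk1a itself averaged 151 ± 6.28 CPM in Dyrk1a+/- and 174 ± 12.9 CPM in wt (SD, n = 3 each), where the unit is counts scaled to a common effective library size (CPM). The log2 fold change of Dyrk1a was -0.20 (SE 0.079, edgeR adjusted p = 0.59). All heterozygotes lay below all wt libraries, 158 against 160 CPM at the nearest, as did 7.49% of all genes tested. Reads of the entire locus are summed, so these counts do not show whether single exons are missing, which was not tested. Forebrain markers were present in all libraries, with the 7 telencephalic markers summing to 427 to 480 CPM in Dyrk1a+/- and 419 to 455 CPM in wt. The 7 midbrain and hindbrain markers summed to 0.362 to 0.48 CPM in Dyrk1a+/- and 0.397 to 1.47 CPM in wt, with Hoxb2 at 0 counts.

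The promoter windows of Ache and of the nested Chat and Slc18a3 locus are shown because the group is built around Ache and because Chat and Slc18a3 share a locus. Each covers 250 bases before to 50 bases after the RefSeq start on GRCm38.p6, written 5′ to 3′ on the strand of the gene. Capitals mark any of 4 motifs on either strand: the GC box GGGCGG, the EGR motif GCGNGGGCG, the E-box CACGTG and the TATA box TATAAA. The windows are Ache at chr5:137288004-137288303 (plus strand), Chat at chr14:32465860-32466159 (minus strand) and Slc18a3 at chr14:32464801-32465100 (minus strand).
Ache: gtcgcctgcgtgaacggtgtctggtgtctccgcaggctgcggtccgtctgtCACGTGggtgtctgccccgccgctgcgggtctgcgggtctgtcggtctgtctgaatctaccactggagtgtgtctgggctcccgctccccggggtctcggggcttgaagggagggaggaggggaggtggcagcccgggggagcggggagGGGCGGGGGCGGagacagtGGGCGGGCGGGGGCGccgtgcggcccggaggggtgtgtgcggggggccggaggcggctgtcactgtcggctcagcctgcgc
Chat: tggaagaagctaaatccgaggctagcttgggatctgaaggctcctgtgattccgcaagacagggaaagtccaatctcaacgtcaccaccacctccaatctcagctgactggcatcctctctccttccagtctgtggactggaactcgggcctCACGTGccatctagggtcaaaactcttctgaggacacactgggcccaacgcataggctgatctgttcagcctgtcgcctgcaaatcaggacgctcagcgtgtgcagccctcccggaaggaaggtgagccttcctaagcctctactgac
Slc18a3: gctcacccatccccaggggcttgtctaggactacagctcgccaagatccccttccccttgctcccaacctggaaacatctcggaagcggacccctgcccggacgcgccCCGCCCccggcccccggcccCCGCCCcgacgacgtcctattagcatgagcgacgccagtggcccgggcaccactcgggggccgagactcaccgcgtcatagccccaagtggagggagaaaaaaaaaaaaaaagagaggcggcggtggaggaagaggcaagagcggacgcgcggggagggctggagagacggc

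The Ache window was 74% G and C, against a median of 52.7% over all 32851 RefSeq windows. It held 4 GC boxes, all at positions -50 to -22 from the start, and 2 EGR motifs that overlap them. Of all windows, 35.7% held a GC box and 5.55% an EGR motif. An E-box lay at positions -199 to -194 in the Ache window and -98 to -93 in the Chat window, and 7.15% of all windows held this motif. The Slc18a3 window had 2 GC boxes and was 67% G and C, and the Chat window had none and was 55.7% G and C. The Chat and Slc18a3 windows are 759 bases apart. None of these 3 windows held TATAAA, which was found in 13.6% of all windows. Windows were matched for 9 of the 10 genes. The RefSeq start of Ache lies 735 bases inside the start of the GENCODE M21 gene, so the transcripts counted may also begin upstream of the window. These matches describe the letters of the windows and say nothing of binding.

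Levels per length, in CPM per kb of merged exons, separated Ache and the 4 receptors from Bche, Prima1 and the genes of acetylcholine synthesis and transport. Over all 6 libraries the order from high to low was Ache, Chrm3, Chrm2, Chrm1, Chrm4, Bche, Slc5a7, Prima1, Slc18a3 and Chat, with means of 1.88 CPM per kb for Ache, 1.64 for Chrm3, 1.52 for Chrm2, 1.37 for Chrm1 and 1.07 for Chrm4. The means of the lower genes were 0.555 CPM per kb for Bche, 0.403 for Slc5a7, 0.304 for Prima1, 0.24 for Slc18a3 and 0.101 for Chat. Among neighbours in this order, only Chrm4 (0.871 to 1.38 CPM per kb) and Bche (0.387 to 0.738) had ranges over the 6 libraries that did not overlap. Slc18a3 was above Chat in 6 of 6 libraries although their ranges overlapped. The order was the same with the longest transcript of each gene as its length. The GENCODE model of Chrm4 is a run of 1440 bases without untranslated parts, so its level is per coding length.

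**Figure D1:**
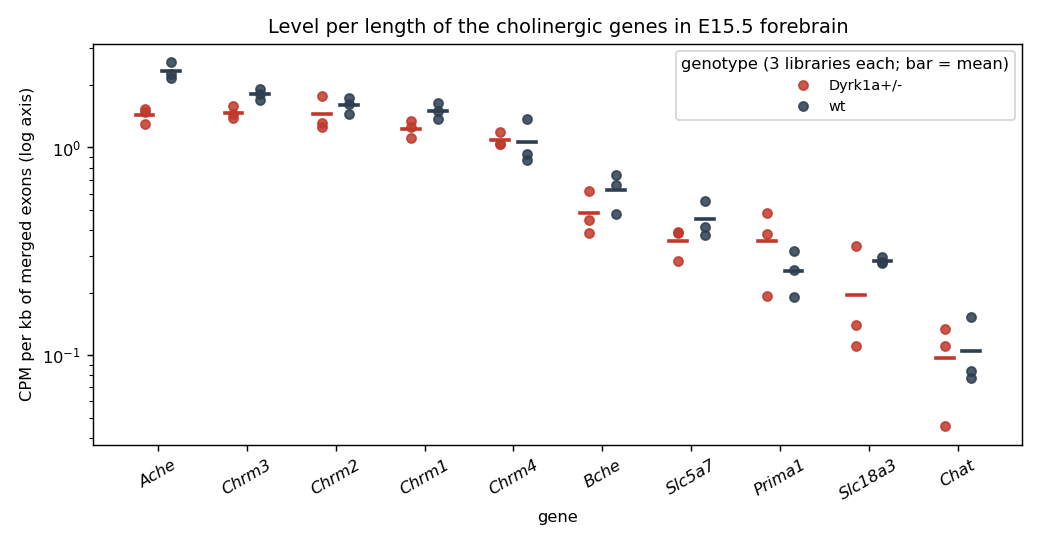
Level of each of the 10 genes in CPM per kb of merged exons (log axis), with points for the 3 Dyrk1a+/- and 3 wt libraries and bars for their means. Ache and the 4 muscarinic receptor genes lie above 0.87 CPM per kb in every library, and Bche, Slc5a7, Prima1, Slc18a3 and Chat lie below 0.74.

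By mean, Ache took a different place in this order in each genotype, which restates the difference that chose the group. In Dyrk1a+/- it averaged 1.44 ± 0.126 CPM per kb and ranked 3 of 10, next to Chrm3 at 1.47 ± 0.103 and Chrm2 at 1.45 ± 0.282 CPM per kb (SD, n = 3). The ranges of these 3 genes overlapped in Dyrk1a+/-, so their order there is not read as a difference. In wt it averaged 2.32 ± 0.221 CPM per kb and ranked 1 of 10, above Chrm3 at 1.80 ± 0.108 CPM per kb (SD, n = 3). By mean CPM over the 6 libraries Ache lay at the 41.5th percentile of the 19403 tested genes.

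Among the cholinesterases, Ache (ENSMUSG00000023328, GRCm38 chromosome 5, 137287519 to 137294466, plus strand) had 124, 176 and 129 counts in the Dyrk1a+/- libraries and 390, 251 and 290 in the wt libraries. Scaled, these were 5.99, 7.08 and 6.88 CPM in Dyrk1a+/- and 11.9, 9.96 and 10.4 CPM in wt. All 3 heterozygotes lay below all 3 wt libraries, and the nearest values were 7.08 and 9.96 CPM. The log2 fold change of Dyrk1a+/- over wt was -0.69 (SE 0.13), which is 0.619 of the wt level. On log2 CPM, Dyrk1a+/- minus wt was -0.54 between replicate 2 and wt replicate 3 and -0.74 among the other libraries, and the log2 fold change ran from -0.75 to -0.61 with each library left out in turn. In bulk tissue, fewer cells that make a transcript and less transcript per cell cannot be told apart.

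Bche (ENSMUSG00000027792, chromosome 3, 73635808 to 73708415, minus strand) encodes butyrylcholinesterase, the related enzyme that also splits other choline esters. It had 2.61, 3.02 and 4.16 CPM in Dyrk1a+/- and 4.97, 4.44 and 3.22 CPM in wt. The genotypes overlapped, since replicate 3 was the highest heterozygote and the lowest wt library. Bche had a log2 fold change of -0.38 (SE 0.229), which was -0.24 without wt replicate 1 and -0.58 without Dyrk1a+/- replicate 3. Prima1 (ENSMUSG00000041669, chromosome 12, 103196908 to 103242150, minus strand), which anchors acetylcholinesterase in the membranes of brain cells, had 5, 15 and 9 counts in Dyrk1a+/- and 13, 6 and 9 in wt. That is 0.242, 0.604 and 0.48 CPM in Dyrk1a+/- and 0.397, 0.238 and 0.322 CPM in wt, with overlapping genotypes. It was the only gene of the 10 left out of the fit by the filter on low counts.

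For synthesis and transport, Chat (ENSMUSG00000021919, chromosome 14, 32408203 to 32465989, minus strand) had 13, 13 and 4 counts in Dyrk1a+/- and 12, 10 and 20 in wt. Its level was 0.628, 0.523 and 0.213 CPM in Dyrk1a+/- and 0.366, 0.397 and 0.716 CPM in wt, so both extremes were replicate 3. The log2 fold change was -0.09 (SE 0.458), and it took either sign, from -0.36 to 0.28, with each library left out in turn. Slc18a3 (ENSMUSG00000100241, chromosome 14, 32462438 to 32464850, minus strand) had 7, 20 and 5 counts in Dyrk1a+/- and 22, 18 and 19 in wt. Scaled, these were 0.338, 0.805 and 0.267 CPM in Dyrk1a+/- and 0.671, 0.714 and 0.681 CPM in wt. The wt libraries lay close together, and the heterozygotes held both the lowest values and, in replicate 2, the highest. The log2 fold change of Slc18a3 was -0.49 (SE 0.414), and with each library left out it ran from -1.17 without Dyrk1a+/- replicate 2 to -0.24 without Dyrk1a+/- replicate 3.

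Slc5a7 (ENSMUSG00000023945, chromosome 17, 54273590 to 54299034, minus strand), the high-affinity choline transporter that limits acetylcholine synthesis in terminals, was the most abundant of the 3 genes per length. It had 2.22, 1.61 and 2.19 CPM in Dyrk1a+/- and 2.35, 3.13 and 2.15 CPM in wt. The ranges overlapped narrowly, because the lowest wt library was just under the 2 highest heterozygotes. Its log2 fold change was -0.35 (SE 0.226), with values of -0.45 to -0.18 when each library was left out.

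**Figure D2:**
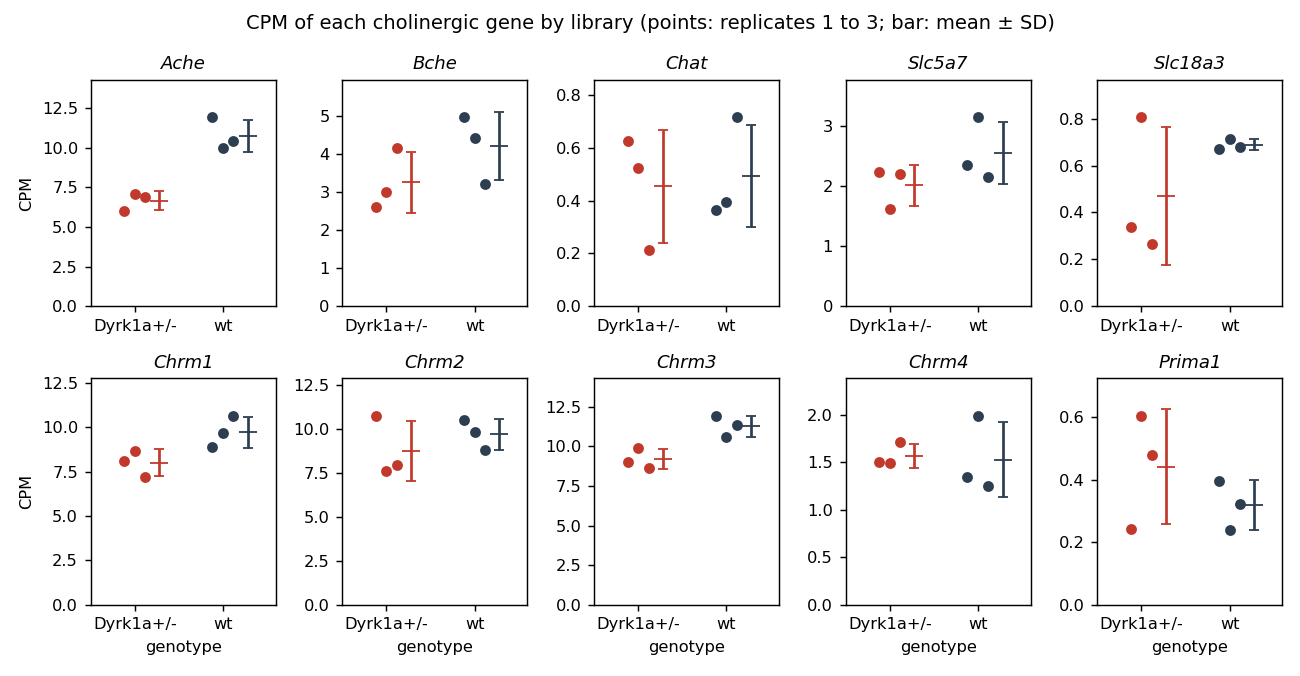
CPM of the 10 genes in each library, with Dyrk1a+/- at the left and wt at the right of each panel, points for replicates 1 to 3 and bars for the mean ± SD. The 3 heterozygotes lie below the 3 wt libraries for Ache (up to 7.08 CPM against 9.96 and above), Chrm1 and Chrm3, and the genotypes overlap in the 7 other panels.

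Of the muscarinic receptors that couple to Gq, Chrm1 (ENSMUSG00000032773, chromosome 19, 8663789 to 8683587, plus strand), the main muscarinic receptor of adult cortex and hippocampus, had 8.12, 8.69 and 7.20 CPM in Dyrk1a+/- and 8.88, 9.68 and 10.6 CPM in wt. The heterozygotes lay below the wt libraries by a narrow margin, 8.69 against 8.88 CPM at the nearest. This gave a log2 fold change of -0.28 (SE 0.129). Chrm3 (ENSMUSG00000046159, chromosome 13, 9875486 to 10360847, minus strand) had 9.03, 9.90 and 8.64 CPM in Dyrk1a+/- and 11.9, 10.6 and 11.3 CPM in wt. Its genotypes did not overlap either, and the log2 fold change was -0.29 (SE 0.115).

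Of those that couple to Gi, Chrm2 (ENSMUSG00000045613, chromosome 6, 36388084 to 36528414, plus strand), an autoreceptor on cholinergic terminals, had 10.7, 7.61 and 7.95 CPM in Dyrk1a+/- and 10.5, 9.80 and 8.78 CPM in wt. Replicate 1 of the heterozygotes exceeded every wt library, and the log2 fold change was -0.15 (SE 0.157). Chrm4 (ENSMUSG00000040495, chromosome 2, 91927249 to 91928688, plus strand), a receptor of striatal projection neurons in the adult, had 1.50, 1.49 and 1.71 CPM in Dyrk1a+/- and 1.34, 1.98 and 1.25 CPM in wt. Its values overlapped, and the log2 fold change of 0.04 (SE 0.246) took either sign, from -0.08 to 0.26, with each library left out. It was the only positive value among the 9 genes in the fit.

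Over the 9 genes in the fit the median log2 fold change was -0.29, with 8 negative and 1 positive, against a median of 0.005 over all 19403 genes, of which 48.8% were negative. Prima1, left out of the fit, had the higher mean in Dyrk1a+/-, 0.442 ± 0.184 CPM against 0.319 ± 0.079 CPM in wt (SD, n = 3 each). By edgeR's quasi-likelihood test with Benjamini-Hochberg adjustment 0 of the 9 passed an adjusted p of 0.05, as did 0.0103% of all genes. DESeq2 called 1, Ache, against 0.197% of the genes to which it gave an adjusted p. At an unadjusted p under 0.05 by edgeR were 2, Ache and Chrm3, against 7.88% of all genes. All heterozygotes lay below all wt libraries in 3 of the 9, Ache, Chrm1 and Chrm3, against 7.49% of all genes. This contrast chose the group, so these counts only record it.

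The rest of the cholinergic system was described from a list of 55 further genes, of which 43 were tested. In that list 0 genes passed over all genes by edgeR or by DESeq2, and the lowest edgeR adjusted p was 0.502, for Kcnq5. At an unadjusted p under 0.05 there were 5, with 2 positive and 3 negative log2 fold changes, which is 11.6% beside the 7.88% of all genes. The list had 32 negative and 11 positive values, which is 74.4% negative beside 48.8% of all genes. Its median log2 fold change was -0.09, beside 0.005 over all genes. The same 48.8% is the background for the sign counts by role below. The list was written with earlier results of these data known, so the sign counts are only recorded. The heterozygotes lay below all wt libraries in 5 of the 43 genes, beside 7.49% of all genes, and above them in 2, beside 6.53%.

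Among nicotinic receptor subunits, 8 of 16 were tested, with 7 negative and 1 positive log2 fold changes, a median of -0.18 and a lowest value of -0.56, for Chrnb4 (SE 0.474). Chrna9 had 0 counts in every library, which allows up to 0.12 to 0.16 CPM in Dyrk1a+/- and 0.0913 to 0.119 CPM in wt by counting error (3 counts per library). Chrnb2 and Chrna7, subunits of the main brain receptors, were the most abundant per length. Chrnb2 was at 14.0 CPM per kb in Dyrk1a+/- and 14.5 CPM per kb in wt, with a log2 fold change of -0.05 (SE 0.096). Chrna7 was at 5.14 CPM per kb in Dyrk1a+/- and 5.21 CPM per kb in wt, with a log2 fold change of -0.02 (SE 0.105). These levels exceeded those of all muscarinic receptor genes. Chrna1, a subunit of the muscle receptor, had 1.59, 0.966 and 1.07 CPM in Dyrk1a+/- and 0.732, 0.674 and 0.681 CPM in wt, with no overlap and a log2 fold change of 0.79 (SE 0.284, edgeR adjusted p = 0.559). The skeletal muscle markers summed to 0.96 to 1.88 CPM in Dyrk1a+/- and 1.07 to 2.18 CPM in wt, with Ckm at 0. Chrm5, the remaining receptor that couples to Gq, averaged 0.529 ± 0.228 CPM in Dyrk1a+/- and 0.753 ± 0.04 CPM in wt (SD, n = 3 each), and its log2 fold change was -0.48 (SE 0.358).

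Of the proteins that bind or assemble nicotinic receptors, 8 of 9 were tested and 8 had negative log2 fold changes, with a median of -0.17. Tmem35a, an assembly chaperone of these receptors, was at 36.7 CPM per kb in Dyrk1a+/- and 38.9 CPM per kb in wt, with a log2 fold change of -0.09 (SE 0.07). Ly6h was at 21.9 CPM per kb in Dyrk1a+/- and 23.7 CPM per kb in wt. Lynx1, a membrane-tethered brake on nicotinic receptors, averaged 3.95 ± 0.214 CPM in Dyrk1a+/- and 5.21 ± 0.669 CPM in wt (SD, n = 3 each), with a log2 fold change of -0.40 (SE 0.153, edgeR adjusted p = 0.584). Lypd6b had 6.74 ± 0.068 CPM in Dyrk1a+/- and 7.89 ± 0.318 CPM in wt (SD, n = 3 each), with a log2 fold change of -0.23 (SE 0.115).

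Of 7 choline transporter-like proteins and choline kinases 5 were tested, 4 with positive and 1 with a negative value, with log2 fold changes from -0.13 to 0.16. Chkb, a choline kinase, was at 8.80 CPM per kb in Dyrk1a+/- and 7.86 CPM per kb in wt. Slc44a5, a choline transporter-like protein, was at 6.96 CPM per kb in Dyrk1a+/- and 7.60 CPM per kb in wt. Colq, the collagen tail that ties acetylcholinesterase to the neuromuscular junction, had 13 counts over all libraries and was not tested.

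Of 7 factors and trophic genes of cholinergic neurons, 3 had positive and 4 negative values, with a median of -0.08. Isl1, a transcription factor of striatal and basal forebrain cholinergic neurons that is also made in other striatal precursors, was at 50.4 ± 4.78 CPM in Dyrk1a+/- and 46.1 ± 1.39 CPM in wt (SD, n = 3 each). Zic4 was at 95.7 ± 1.03 CPM in Dyrk1a+/- and 86.2 ± 2.33 CPM in wt (SD, n = 3 each), with a log2 fold change of 0.15 (SE 0.065, edgeR adjusted p = 0.625).

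Of 10 genes of muscarinic signal transduction, 9 had negative values, with a median of -0.08. Kcnq5, a channel of the potassium current that muscarinic receptors inhibit, had 21.7, 20.3 and 14.3 CPM in Dyrk1a+/- and 30.1, 27.8 and 24.7 CPM in wt. The genotypes did not overlap, and the log2 fold change was -0.55 (SE 0.155, edgeR adjusted p = 0.502). Gnai1, an inhibitory G protein subunit, had a log2 fold change of -0.34 (SE 0.165), and Gnai2, of the same family, 0.08 (SE 0.08). Gnaq, the G protein subunit that activates phospholipase C, was at 35.7 CPM per kb in Dyrk1a+/- and 37.7 CPM per kb in wt.

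Of 4 genes for proteins with a cholinesterase-like domain, the neuroligins Nlgn1, Nlgn2 and Nlgn3 and the thyroid hormone precursor Tg, 2 had positive and 2 negative log2 fold changes. Neuroligins are synaptic adhesion proteins whose outer domain resembles cholinesterases without their activity. Nlgn1 averaged 129 ± 13.9 CPM in Dyrk1a+/- and 159 ± 14.2 CPM in wt (SD, n = 3 each), with a log2 fold change of -0.31 (SE 0.1, edgeR adjusted p = 0.526). Nlgn2 averaged 119 ± 8.21 CPM in Dyrk1a+/- and 116 ± 6.46 CPM in wt (SD, n = 3 each), with a log2 fold change of 0.04 (SE 0.08).

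**Figure D3:**
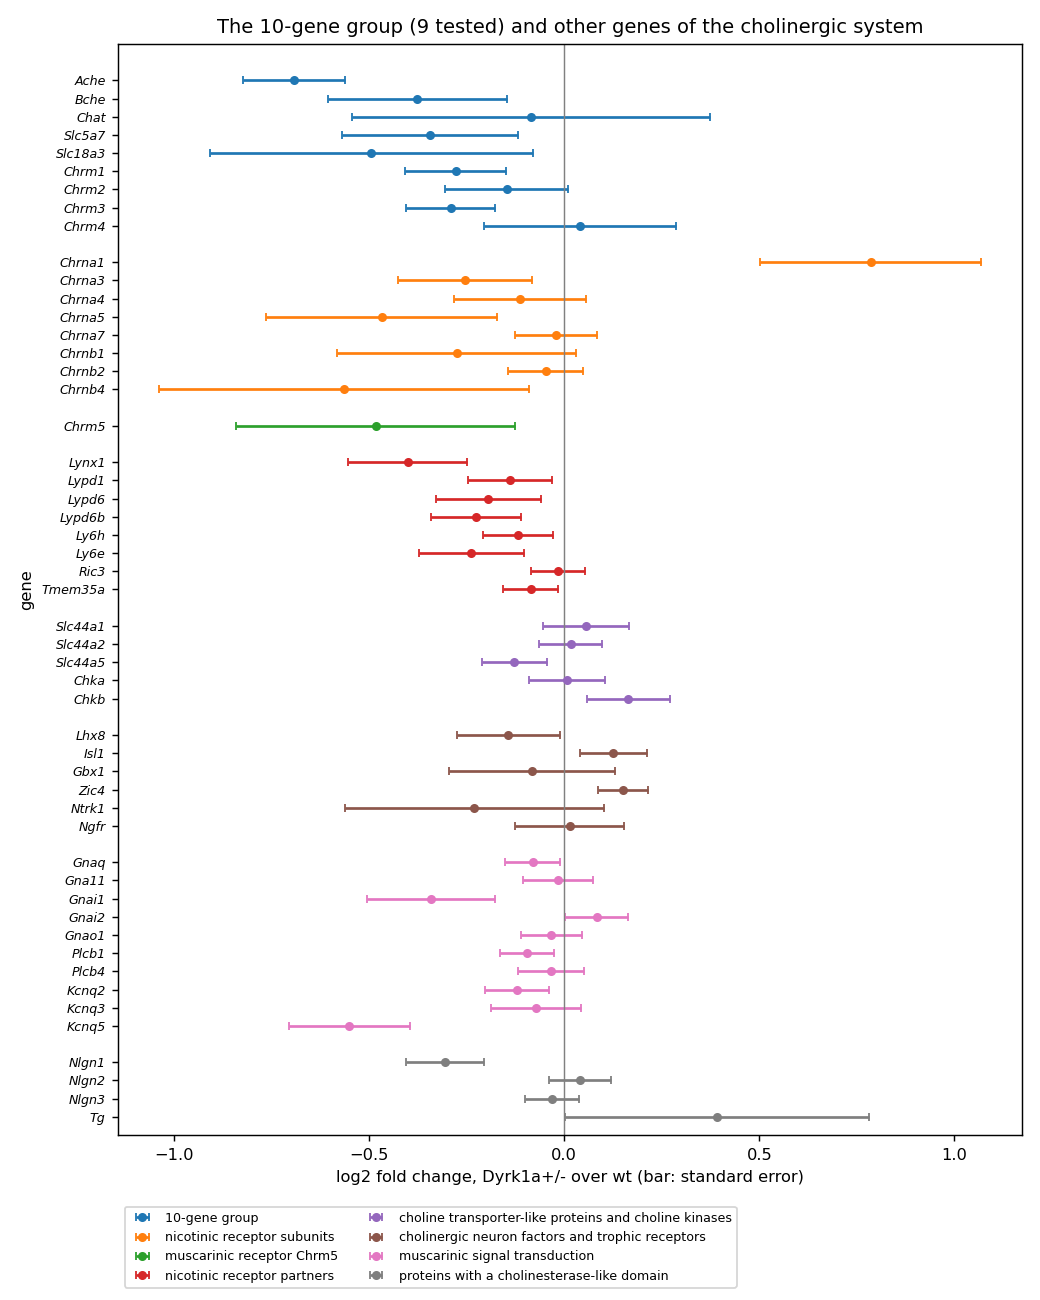
Log2 fold change of Dyrk1a+/- over wt with its standard error for the 9 tested genes of the group and for tested genes of the wider list, by role. Ache is at -0.69, most other values lie between -0.5 and 0.2, and none passed the adjusted threshold by edgeR.

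Markers of cells that could carry these transcripts were lower in Dyrk1a+/- in several lists. All 9 striatal projection neuron markers had negative values and summed to 70.3 to 80.8 CPM in Dyrk1a+/- and 94.2 to 97.9 CPM in wt. Among them Rgs9 was at 19.8 ± 3.87 CPM in Dyrk1a+/- and 26.9 ± 0.845 CPM in wt (SD, n = 3 each). All 6 tested erythroid markers had negative values, and the list summed to 492 to 713 CPM in Dyrk1a+/- and 730 to 933 CPM in wt, led by the globin gene Hbb-bs at 386 ± 64.8 CPM in Dyrk1a+/- and 490 ± 44.9 CPM in wt (SD, n = 3 each). Red blood cells and their precursors also carry acetylcholinesterase. Postmitotic neuron markers, 5 of 6 negative, summed to 3882 to 4141 CPM in Dyrk1a+/- and 4157 to 4455 CPM in wt. That sum was made mostly of Map2 and Tubb3, each of which overlapped between genotypes. Oligodendrocyte precursor markers, 3 of 4 negative, summed to 77.1 to 95.7 CPM in Dyrk1a+/- and 109 to 113 CPM in wt. The positive gene was Olig2, at 9.53 ± 1.03 CPM in Dyrk1a+/- and 8.86 ± 1.25 CPM in wt (SD, n = 3 each). Meningeal markers, 4 of 6 negative, summed to 383 to 425 CPM in Dyrk1a+/- and 435 to 510 CPM in wt. The meningeal sum was made mostly of collagen genes, and the 2 positive genes were Col1a1 and Lum. The part of these cells in the level of Ache was not tested.

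Other lists overlapped between genotypes or were higher in Dyrk1a+/-. The 7 markers of basal forebrain and striatal cholinergic neurons summed to 182 to 201 CPM in Dyrk1a+/- and 174 to 176 CPM in wt, a sum made mostly of Zic4 and Isl1, which other cells also express. Diencephalic markers, 5 of 5 positive and led by Tcf7l2, summed to 153 to 222 CPM in Dyrk1a+/- and 138 to 167 CPM in wt. Radial glial markers, 4 of 5 positive, summed to 443 to 488 CPM in Dyrk1a+/- and 420 to 469 CPM in wt, a sum made mostly of Fabp7, the gene with the negative value. Chosen after their values were seen, Pax6 (66.6 to 76.2 CPM in Dyrk1a+/- and 57.5 to 59.9 CPM in wt), Hes1 (11.9 to 13.8 CPM in Dyrk1a+/- and 8.60 to 9.76 CPM in wt) and Hes5 (23.1 to 27.5 CPM in Dyrk1a+/- and 18.6 to 22.1 CPM in wt) did not overlap between genotypes. Sox2 (65.8 to 91.3 CPM in Dyrk1a+/- and 61.5 to 75.3 CPM in wt) and Fabp7 overlapped. Over all genes tested, 6.53% had all heterozygotes above all wt libraries. Endothelial markers summed to 160 to 182 CPM in Dyrk1a+/- and 164 to 186 CPM in wt. Habenular markers summed to 20.5 to 22.4 CPM in Dyrk1a+/- and 18.7 to 21.5 CPM in wt, a sum made mostly of Nr4a2. Over the 6 libraries Nr4a2 averaged 17.7 CPM, Pou4f1 2.77 CPM and Tac2 0.438 CPM. The 3 motor neuron markers summed to at most 0.402 CPM in Dyrk1a+/- and 0.322 CPM in wt, with Mnx1 at 0.

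**Figure D4:**
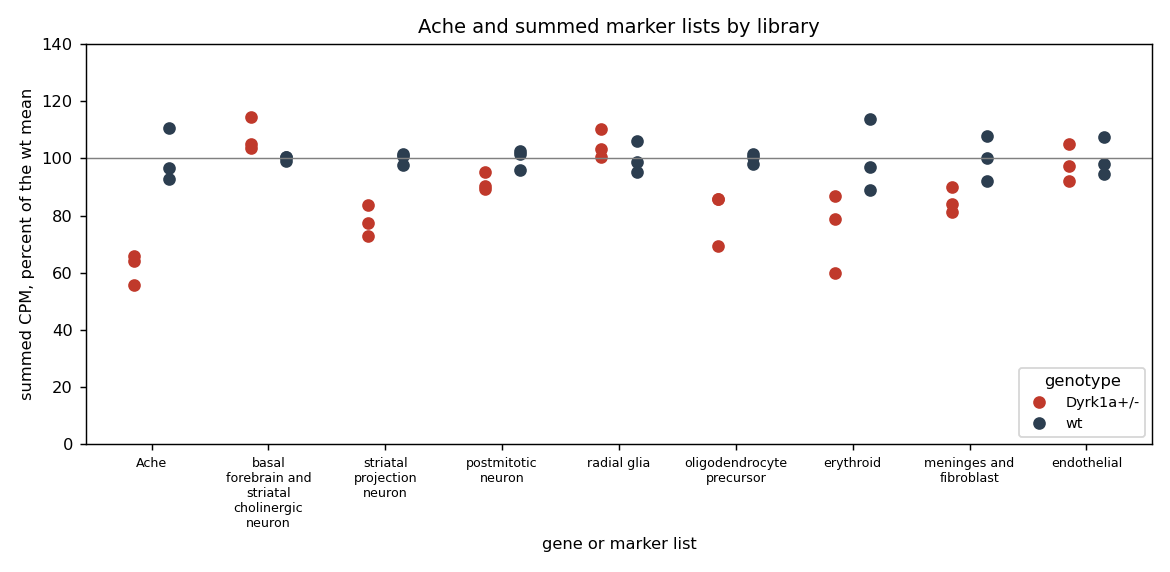
Ache and the summed CPM of 8 marker lists in each library, as a percent of the wt mean, with Dyrk1a+/- left of wt. The heterozygotes lie below all wt libraries for Ache and for the striatal projection neuron, postmitotic neuron, oligodendrocyte precursor, erythroid and meningeal lists.

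The genes whose pattern over the 6 libraries was most like that of Ache were found by the root mean square difference of log2 CPM, centred on the mean of each gene, among tested genes of at least 1 CPM. The closest was Entpd3, an enzyme that splits extracellular nucleotides, at a difference of 0.049, followed by Atp6ap1l (0.088), the zinc finger gene Zfp385b (0.097), the oxygen-sensing prolyl hydroxylase gene Egln3 (0.0997) and Gm13323 (0.101). Entpd3 had 1.69, 1.85 and 1.97 CPM in Dyrk1a+/- and 3.54, 2.78 and 2.87 CPM in wt. Like Ache, it was lowest in Dyrk1a+/- replicate 1 and highest in wt replicate 1, as were Atp6ap1l and Gm13323. Egln3 had 3.14, 3.42 and 2.93 CPM in Dyrk1a+/- and 5.46, 5.24 and 5.05 CPM in wt. These genes were picked for likeness to a gene that was itself chosen for its difference, so their own differences follow from the choice. Within the group the nearest to Ache were Chrm3 (0.21, rank 238 of 16773 genes), Chrm1 (0.264, rank 1037) and Bche (0.268, rank 1141). The farthest of those with at least 1 CPM was Chrm4 (0.435, rank 12635). The measure includes the difference between genotypes that chose the group, so nothing is read from these places.

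**Figure D5:**
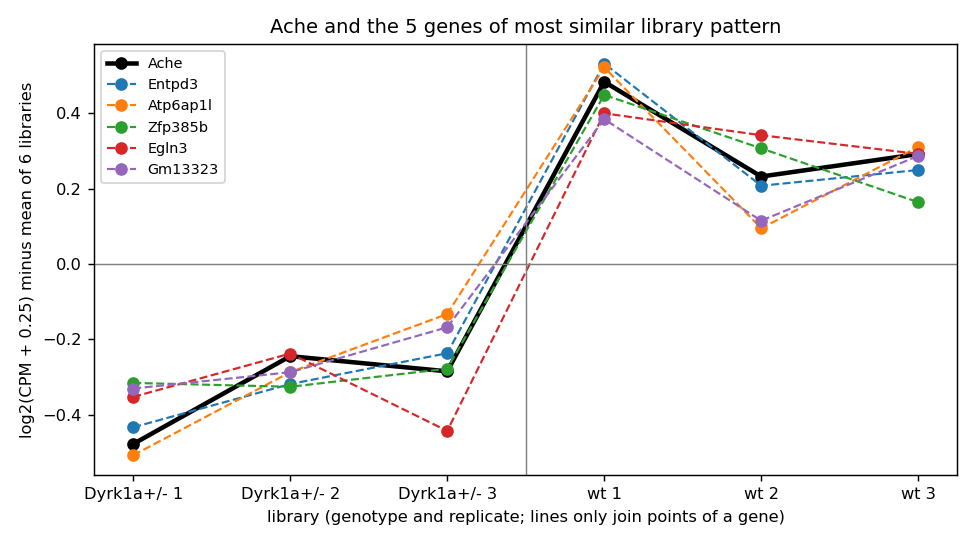
Log2(CPM + 0.25) of Ache and the 5 genes nearest to it, each minus its mean over the 6 libraries, with Dyrk1a+/- replicates 1 to 3 left of wt replicates 1 to 3. In all 6 genes the 3 heterozygotes lie below and the 3 wt libraries above the mean, and for Ache, Entpd3, Atp6ap1l and Gm13323 the extremes are replicate 1 of each genotype.

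Other annotated genes overlap several of these loci, and the strand setting of the counting is not given in the sources used here. Gm42456, a non-coding gene on the opposite strand, shares 98 exonic bases with Ache and had 1 to 6 counts per library. The neighbour with the most counts was 9330158H04Rik, opposite Chrm2 with 142 shared exonic bases and 19 to 55 counts per library, against 149 to 344 counts of Chrm2. Gm22820, opposite Chrm1 with 329 shared exonic bases, had at most 4 counts, and Gm2990, opposite Chat without shared exonic bases, had 1 to 5 counts beside the 4 to 20 of Chat. Gm26861, opposite Chrm3 without shared exonic bases, had 3 to 15 counts. Slc18a3 and Chat share no exonic bases in the annotation used, and reads from unspliced Chat RNA over Slc18a3 cannot be told apart from Slc18a3 reads.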

How the data were processed

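Forebrain RNA from 3 Dyrk1a+/- and 3 wt samples of mouse embryos was sequenced with single-end reads, and groups and replicate numbers come from the sample titles. The authors deposited raw counts per Ensembl gene. Per the submitters' processing notes, bcl2fastq 2.17.1.14, HISAT2, SAMtools 1.9, HTSeq 0.9.1 and GRCm38/mm10 were used, and the annotation release is not given in the sources used here. The labels name a stranded total RNA kit with ribosomal depletion and also polyA RNA. Symbols, lengths and positions were taken from GENCODE M21 (32888 of 33084 identifiers matched).

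Counts were fitted in R 4.3.3 with edgeR 4.0.16 (filterByExpr, TMM, quasi-likelihood test, genotype as the only term, Benjamini-Hochberg adjustment over 19403 genes, threshold 0.05), with DESeq2 1.42.0 on the same genes as an alternative. The fit was tested on simulated data. Log2 fold changes are Dyrk1a+/- over wt, and standard errors come from the F statistic. Single-library log2 values use CPM + 0.25. Libraries differed beyond sampling noise, and each was counted as a sample. The lowest chi-square over its degrees of freedom was 4.55 among all pairs of libraries, within and across genotypes. Where separate litters are not stated, p-values measure only the spread between these libraries, and count floors cover counting error only.

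The members, lists and tests were chosen with earlier results of these data known. The text names the 10 members, Dyrk1a, overlapping genes, 8 list genes of lowest p, 2 of highest level per subgroup, leading markers and the 5 genes most like Ache. A list gene and a marker that this rule or the text would name are not reported here. Sequences are from RefSeq, GRCm38.p6. Alternatives covered the test, scaling, low-count filter, replicate block, the library pair and leaving out each library.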

Additional observations from a re-analysis of the deposited data

How the results depend on the processing

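The count of genes called over all genes, 2 by edgeR, was 30 with DESeq2, 4 with no low-count filter, and 6 with a term for the library pair or on the 4 other libraries alone. It ran from 0 to 5 when each library was left out in turn: it was 0 without Dyrk1a+/- replicate 1 or 3 or wt replicate 1 or 2 (812 to 1584 genes at an unadjusted p under 0.05 by edgeR) and 5 without Dyrk1a+/- replicate 2. The cause was not tested. With the replicate number as a block edgeR called 0 genes (1110 at an unadjusted p under 0.05). Deviations of same-numbered libraries from their genotype means correlated at 0.24, -0.38 and -0.22 over genes. These signs follow the leading axis, which set Dyrk1a+/- replicate 2 and wt replicate 3 apart, so they cannot show whether the numbers pair the libraries. The labels do not state a pairing, and the main fit used none.

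The further cholinergic genes gave 0 calls in every alternative run, by edgeR and DESeq2, with 2 to 9 at an unadjusted p under 0.05. The 9 of 43 came with the term for the library pair, where 3037 of all 19403 genes were under 0.05 by edgeR. The 2 of 43 came without wt replicate 1, where 812 of all 19779 genes were. The log2 fold change of Ache was -0.77 to -0.61 over all alternatives, and -0.69 with the replicate block. That of Slc18a3 was -1.17 on the 4 other libraries alone or without Dyrk1a+/- replicate 2, -0.30 without Dyrk1a+/- replicate 1 and -0.24 without Dyrk1a+/- replicate 3. A minimum of 1 CPM in 3 libraries gave no value for Chat or Slc18a3. Prima1 was tested only in some of the alternatives, where its log2 fold change was 0.30 to 0.75. Depth limits Chat, Slc18a3 and Prima1, which had 57 to 91 counts each over all 6 libraries.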
